A study of Mus musculus with 12 samples.

Results

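The genes described here are 10 genes of the disease-associated microglia (DAM) signature, *Cst7*, *Lyz2*, *Gpnmb*, *Lpl*, *Spp1*, *Itgax*, *Clec7a*, *Axl*, *Lilrb4a* and *Cd9*, chosen by symbol from 52459 genes in the count tables of mouse brain. All 10 were found and all 10 passed the filter on low counts in both brain areas. RNA of the cerebellum (Cb) and of the forebrain/midbrain (F/M) was sequenced in 12 libraries, 3 for each of the groups Cb-N, Cb-T, F/M-N and F/M-T. T stands for male *Tpp1*-/- mice of 4 months, homozygous for a gene-targeted *Tpp1* allele in a line kept by crossing heterozygotes, and N for their male wild-type siblings of the same age. *Tpp1* encodes a lysosomal peptidase, and its loss causes the late infantile form of neuronal ceroid lipofuscinosis, a storage disease of childhood. The allele is disrupted in every cell of the mouse, each library is bulk tissue, and the 4 months are the end stage of this line, so that a value belongs to a whole dissected area at a single age. In bulk tissue, more microglia and more RNA of a gene in each microglial cell cannot be told apart.

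Microglia are the resident macrophages of the brain. The DAM state was described in models of Alzheimer's disease as a programme in which genes of phagocytosis, lysosomes and lipid handling rise while genes of the resting (homeostatic) state fall, in part through the receptor *Trem2* and its adaptor *Tyrobp*. Several of the 10 genes are not private to microglia: *Axl*, *Spp1*, *Cd9* and *Lpl* are also made by neurons, vascular cells or other glia.

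Total counts per library were 21428379 to 24458189, and 3 counts, the lowest level taken as detectable, corresponded to 0.123 to 0.140 CPM (counts scaled to the library size with edgeR's TMM factors). That floor covers counting error only. *Tpp1* itself, the check on the genotype labels, had 88 to 94 CPM in F/M-N, 22 to 24 CPM in F/M-T, 112 to 114 CPM in Cb-N and 28 to 31 CPM in Cb-T. All T libraries lay below all N libraries of their area. Markers of neighbouring tissue also moved with genotype. Of 12 genes listed as markers of the hindbrain outside the cerebellum, 11 were upregulated in Cb-T, and *Slc6a5* was not (-0.022). Their summed level was 66.7 to 69.7 CPM in Cb-T against 48.9 to 52.4 CPM in Cb-N. *Hoxb5*, *Hoxb6*, *Hoxc4* and *Hoxc5* had 0 counts in every Cb-N library. The Cb-N sum thus came from other genes of the list, and which cells made that RNA was not tested. Of 6 olfactory bulb genes, 5 were downregulated in F/M-T, from a sum of 27.8 to 29.1 CPM in F/M-N to 17.0 to 18.0 CPM in F/M-T. Of 4 hindbrain genes tested in F/M, *Tph2* (log2 fold change 3.03) and *Slc6a5* (0.91) were upregulated, and the hindbrain sum was 16.2 to 19.6 CPM in F/M-N and 27.9 to 30.9 CPM in F/M-T. Of 3 bulb genes tested in Cb, *Eomes* was downregulated (-2.20), and the bulb sum was 65.6 to 69.3 CPM in Cb-N and 25.4 to 28.8 CPM in Cb-T. That list was thus higher in Cb-N than in F/M-N, so in Cb it does not mark tissue of the bulb. Each of these shifts holds for all 3 libraries of a group, so tissue included in the dissected piece and genotype cannot be told apart in any comparison below.

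The starts of these genes are shown first as a description of sequence, and their link to the change in T was not tested. RefSeq start sites were listed for 8 of the 10 genes, *Spp1* and *Clec7a* having 2 each, which gives 10 promoters of 300 bases (250 before and 50 after the start). A start site was not listed for *Lpl* and *Lilrb4a*. The 3 motifs searched on both strands were GAGGAA, the core bound by the myeloid factor PU.1, CACGTG, the E-box read by the lysosomal regulators of the MiT/TFE family, and TGANTCA, the site of AP-1, where N is any base. These motifs do not overlap one another. The 150 bases before the start are printed for 4 genes with a match in front of the start, with the matched letters in capitals. In *Cst7* the last base of the match lies past the start and is not printed.
Cst7 (GRCm38.p6, chr2:150570265-150570414, plus strand): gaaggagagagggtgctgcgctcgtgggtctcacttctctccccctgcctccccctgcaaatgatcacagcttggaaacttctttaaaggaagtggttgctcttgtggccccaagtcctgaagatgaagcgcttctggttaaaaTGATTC
Itgax (GRCm38.p6, chr7:128129400-128129549, plus strand): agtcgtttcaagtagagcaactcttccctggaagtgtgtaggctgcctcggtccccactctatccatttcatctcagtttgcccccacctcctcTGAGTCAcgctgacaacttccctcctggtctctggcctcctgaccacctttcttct
Clec7a (GRCm38.p6, chr6:129472780-129472929, minus strand): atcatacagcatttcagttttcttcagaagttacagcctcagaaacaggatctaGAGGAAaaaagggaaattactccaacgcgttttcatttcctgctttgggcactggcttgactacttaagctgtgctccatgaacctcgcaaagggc
Spp1 (GRCm38.p6, chr5:104434961-104435110, plus strand): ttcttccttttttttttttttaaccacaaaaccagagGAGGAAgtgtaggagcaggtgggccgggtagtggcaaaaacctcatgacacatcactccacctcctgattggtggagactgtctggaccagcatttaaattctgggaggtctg
TGANTCA was found in 3 of the 10 promoters, at 6 bases before the start of *Cst7*, 56 bases before that of *Itgax* and at position 8 after that of *Gpnmb*, and in 7.81% of all 32851 promoters of the table. GAGGAA was found in 4 of the 10, both of *Clec7a*, the first of *Spp1* and that of *Axl* (minus strand), and in 28.3% of all promoters. CACGTG was found in 0 of the 10 and in 7.15% of all. A match describes letters in this window and is not evidence of binding.

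In every T library of both areas, each of the 10 genes was higher than in any N library of that area. All T libraries lay above all N libraries for 27.7% of the genes tested in Cb and for 13.3% in F/M. The largest relative changes were those of *Cst7*, *Clec7a* and *Itgax*, which were nearly undetected in controls, and the smallest were those of *Axl*, *Cd9* and *Spp1* in Cb and of *Spp1*, *Axl* and *Lpl* in F/M, genes that the controls of that area already expressed. DEG were the genes with an FDR under 0.1 and a change of 1.5-fold or more by edgeR's quasi-likelihood test, and every adjusted p comes from that test over all genes unless another tool is named. In Cb, 10 of the 10 genes were upregulated DEG, beside 8.54% of all 16382 genes tested (2.66% were downregulated and 11.2% DEG in either direction). In F/M, 7 of the 10 were upregulated DEG, beside 2.63% of 16665 genes (0.858% downregulated, 3.49% in either direction). *Lpl*, *Axl* and *Spp1* stayed under the fold-change limit in F/M. As a median, the log2 fold change (T vs. N) over the 10 members reached 3.62 in Cb and 1.91 in F/M, beside 0.012 and 0.0077 over all genes tested. Several of these genes are named in the study from these same libraries, so their direction here is not independent evidence.

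**Figure D1:**
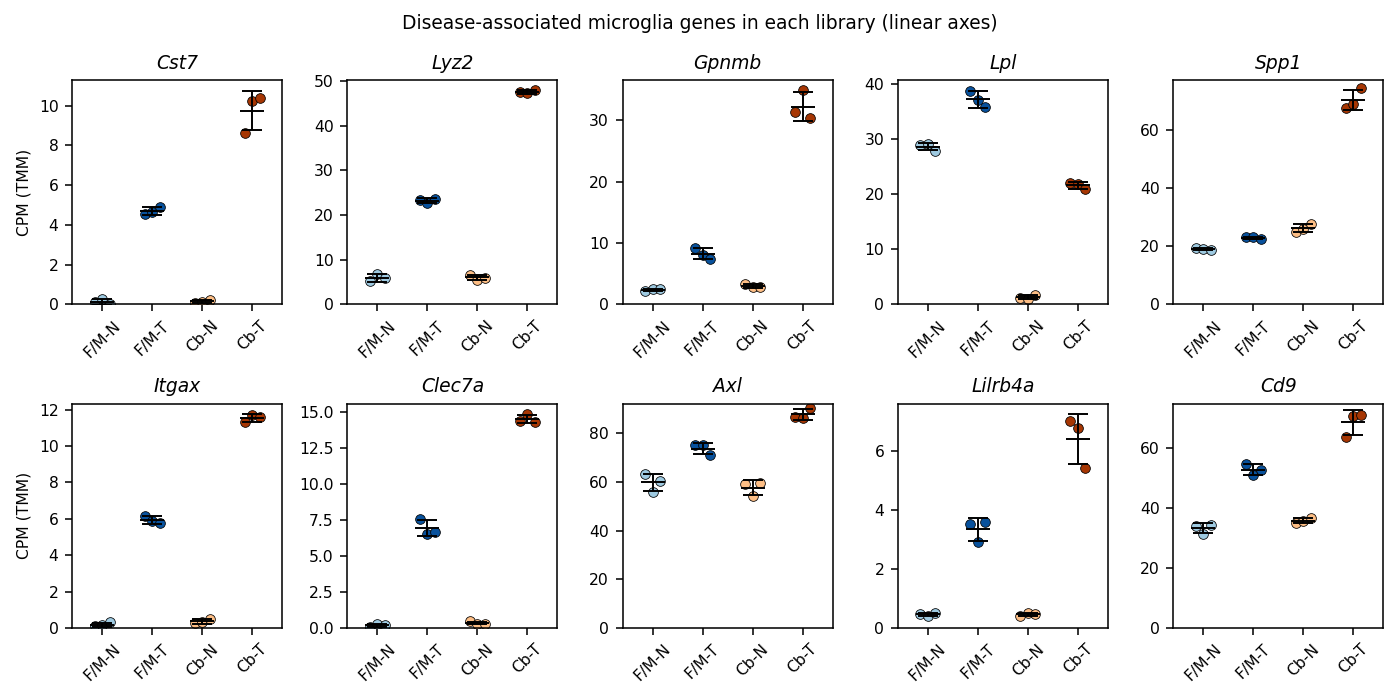
CPM of each gene (linear axes from 0, each panel with its own scale) in the 12 libraries, as points, with the mean and SD of the 3 libraries of each group. The Cb-T libraries are the highest for 9 of the 10 genes, while *Lpl* is highest in F/M-T.

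The first genes encode products of the lysosome and secreted proteins. *Cst7* (chromosome 2, 150570415 to 150578944, plus strand in GENCODE of GRCm38) encodes cystatin F, an inhibitor of cysteine cathepsins inside endosomes and lysosomes. Its level was 0.0888, 0.138 and 0.232 CPM in the Cb-N libraries and 8.61, 10.2 and 10.4 CPM in the Cb-T libraries. In F/M-N it was 0.130, 0.270 and 0 CPM, and in F/M-T 4.56, 4.64 and 4.93 CPM. The controls thus held 10 counts in all of Cb-N and 9 in all of F/M-N, at the limit of detection, and every T library was far above them. *Cst7* rose by 5.97 on the log2 scale in Cb (standard error 0.23, adjusted p = 3.4e-25) and by 5.15 in F/M (standard error 0.32, adjusted p = 3.5e-10). The F/M value rested on few control counts, being 6.11 without F/M-N replicate 2 and 4.56 without F/M-N replicate 3.

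*Lyz2* (chromosome 10, 117277331 to 117282321, minus strand) encodes lysozyme M, a bacteria-degrading enzyme of macrophages and granulocytes. It had 6.66, 5.46 and 6.03 CPM in Cb-N and 47.5, 47.2 and 48.0 CPM in Cb-T. It had 5.16, 6.80 and 5.85 CPM in F/M-N and 23.4, 22.6 and 23.6 CPM in F/M-T. Controls of both areas overlapped, and the T libraries of each area formed a tight set of their own. The log2 fold change was 2.99 in Cb (standard error 0.067, adjusted p = 6.4e-34) and 2.00 in F/M (standard error 0.084, adjusted p = 7.4e-13). Its neighbour and close paralog *Lyz1* had 0 to 4 counts in any library, although reads shared by both genes could have been divided or dropped in the counting.

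*Gpnmb* (chromosome 6, 49036546 to 49070929, plus strand) encodes a transmembrane glycoprotein of lysosomes and melanosomes. It had 3.33, 2.84 and 2.88 CPM in Cb-N and 31.4, 34.9 and 30.4 CPM in Cb-T. In F/M-N it had 2.21, 2.48 and 2.46 CPM, and in F/M-T 9.24, 8.12 and 7.41 CPM. Its level in Cb-T stood well above that of F/M-T, while the controls of both areas were close. *Gpnmb* was 10.8-fold higher in Cb-T than in Cb-N (3.43 on the log2 scale, standard error 0.090, adjusted p = 3.1e-31) and 3.54-fold higher in F/M-T than in F/M-N (log2 fold change 1.82, standard error 0.13, adjusted p = 2.6e-09).

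*Lpl* (chromosome 8, 68880491 to 68907448, plus strand) encodes lipoprotein lipase, which releases fatty acids from triglyceride-rich lipoproteins. It was the gene whose pattern departed most from the others. The Cb-N libraries had 1.24, 0.963 and 1.81 CPM and the Cb-T libraries 21.9, 21.9 and 20.9 CPM. The F/M-N libraries had 28.9, 29.1 and 27.9 CPM and the F/M-T libraries 38.8, 37.1 and 35.7 CPM. Control F/M thus had more *Lpl* than mutant Cb, and the control Cb had almost none. In Cb the rise was 16.2-fold (log2 fold change 4.02, standard error 0.12, adjusted p = 4.1e-29). In F/M it was 1.33-fold (log2 fold change 0.41, standard error 0.051, adjusted p = 7.1e-06), which is not a DEG.

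*Spp1* (chromosome 5, 104435118 to 104441050, plus strand) encodes osteopontin, a secreted phosphoprotein bound by integrins and CD44. It had 24.8, 26.1 and 27.7 CPM in Cb-N and 67.7, 69.0 and 74.3 CPM in Cb-T. It had 19.6, 19.1 and 18.8 CPM in F/M-N and 23.3, 23.1 and 22.6 CPM in F/M-T. The F/M-T libraries remained below the Cb-N libraries, a different order from the other genes. *Spp1* was upregulated in Cb (1.44 on the log2 scale, standard error 0.048, adjusted p = 1.9e-27), and in F/M its value of 0.30 (standard error 0.058, adjusted p = 0.00098) was under the limit. Its exons overlap those of *Gm42793* on the same strand.

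The next genes encode surface receptors. *Itgax* (chromosome 7, 128129547 to 128150657, plus strand) encodes the alpha X integrin CD11c. It had 6, 7 and 11 counts in the Cb-N libraries and 268, 291 and 279 counts in the Cb-T libraries, and 2, 3 and 7 counts in F/M-N against 141, 142 and 134 counts in F/M-T. The N libraries were near the limit of detection and the T libraries were even within each area. The fold change was 31.5 in Cb (95% interval of the log2 fold change 4.62 to 5.33) and 33.8 in F/M (4.56 to 5.59). Without F/M-N replicate 3 the log2 fold change in F/M was 5.71.

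*Clec7a* (chromosome 6, 129461591 to 129472779, minus strand) encodes dectin-1, a C-type lectin receptor for beta-glucans that signals through the kinase SYK. It had 0.444, 0.275 and 0.278 CPM in Cb-N and 14.4, 14.8 and 14.3 CPM in Cb-T. It had 0.0868, 0.270 and 0.212 CPM in F/M-N and 7.53, 6.50 and 6.68 CPM in F/M-T. The Cb-T libraries were the highest set and the F/M-T libraries the next, both clear of the controls, while the nearest libraries of F/M-N and Cb-N had 6 counts each. *Clec7a* rose 43.1-fold in Cb (5.43 on the log2 scale, standard error 0.17, adjusted p = 1.2e-28) and 36.4-fold in F/M (standard error 0.23 on the log2 scale).

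*Axl* (chromosome 7, 25757273 to 25788705, minus strand) encodes a receptor tyrosine kinase of the TAM family, whose ligand GAS6 bridges it to dying cells. It had 59.3, 54.2 and 59.5 CPM in Cb-N and 86.6, 86.3 and 90.4 CPM in Cb-T. It had 63.1, 55.9 and 60.4 CPM in F/M-N and 75.0, 75.1 and 70.9 CPM in F/M-T. Among the 10 genes this was the highest level in controls by CPM and the smallest rise in Cb, although the T libraries did not overlap the N libraries. The log2 fold change was 0.62 in Cb (standard error 0.038, adjusted p = 8.7e-18), just past the limit of 1.5-fold, and without Cb-N replicate 2 it was 0.57 and no longer past it. In F/M it was 0.33 (standard error 0.045, adjusted p = 2.1e-05), under the limit.

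*Lilrb4a* (chromosome 10, 51490956 to 51496611, plus strand) encodes an inhibitory receptor of the immunoglobulin family. It had 9, 11 and 10 counts in Cb-N and 166, 168 and 131 counts in Cb-T. It had 11, 9 and 12 counts in F/M-N and 80, 70 and 84 counts in F/M-T. The controls of both areas overlapped, and Cb-T replicate 3 was the lowest of its group while still above all F/M-T libraries. *Lilrb4a* rose by 3.81 on the log2 scale in Cb (standard error 0.20, adjusted p = 5.1e-20) and by 2.86 in F/M (standard error 0.22, adjusted p = 1.3e-08). Exons of *Gm49339* and *Gm40645* overlap it, the near-identical *Lilrb4b* was not analysed here, and its reads are therefore uncertain. *Pirb*, another inhibitory receptor of this family, was upregulated by 2.04 in Cb (adjusted p = 4.3e-05) and by 1.13 in F/M (adjusted p = 0.043), the latter not called by DESeq2.

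*Cd9* (chromosome 6, 125460266 to 125494791, minus strand) encodes a tetraspanin, a membrane protein that gathers integrins and other proteins into clusters. It had 34.9, 35.7 and 36.5 CPM in Cb-N and 63.8, 70.7 and 71.1 CPM in Cb-T. It had 34.1, 31.2 and 34.1 CPM in F/M-N and 54.7, 51.0 and 52.6 CPM in F/M-T. The controls of both areas were close, and both sets of T libraries were clear of them. *Cd9* rose 1.94-fold in Cb (0.95 on the log2 scale, standard error 0.045, adjusted p = 6.5e-22) and 1.63-fold in F/M (log2 fold change 0.70, standard error 0.050, adjusted p = 2.8e-09). *Gm26728* overlaps its exons on the opposite strand, and whether the counting used the strand is not given in the sources used here.

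**Figure D2:**
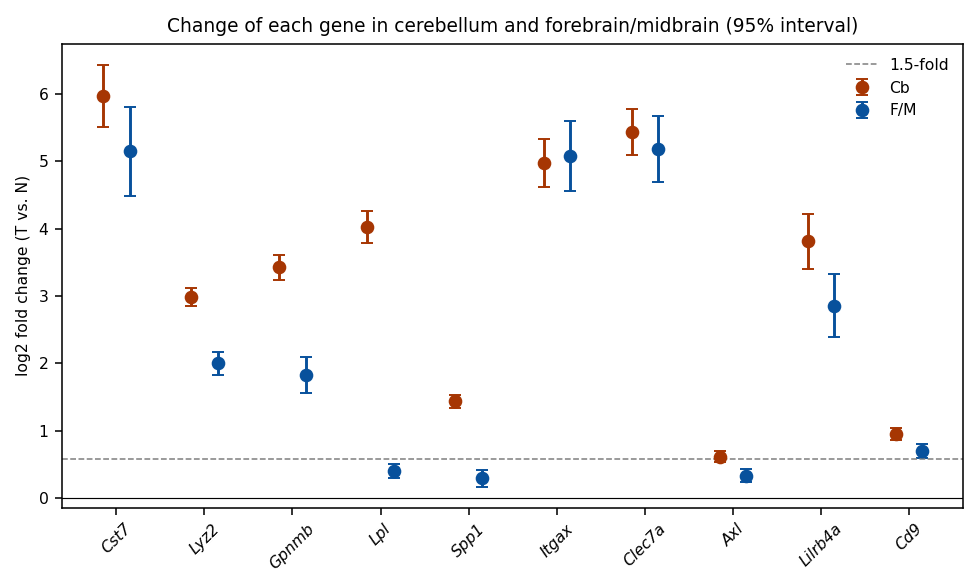
Log2 fold change (T vs. N) of each gene with its 95% interval, Cb in brown and F/M in blue, and a dashed line at 1.5-fold. *Lpl* shows the widest gap between areas (4.02 in Cb and 0.41 in F/M), and the intervals of *Cst7*, *Itgax* and *Clec7a* overlap between areas.

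For 9 of the 10 genes, all but *Itgax*, the log2 fold change was larger in Cb, and for 10 of 10 the gain in CPM was. The difference itself was tested as the interaction of area and genotype over all 12 libraries. It was a call for 5 of the 10 genes, each with the larger rise in Cb, beside 6.41% of all 17482 genes with a larger value in Cb, 1.20% with a larger one in F/M and 7.61% in either direction. *Lpl* differed by 3.63 on the log2 scale (standard error 0.13, adjusted p = 7.1e-19). *Gpnmb* differed by 1.62 (standard error 0.18, adjusted p = 5.2e-08) and *Spp1* by 1.16 (standard error 0.077, adjusted p = 6.1e-13). *Lyz2* differed by 1.00 (standard error 0.12, adjusted p = 1.2e-07). The difference of *Lilrb4a*, 0.97 (standard error 0.39, adjusted p = 0.072), was close to the FDR limit and was 0.85 to 1.06 with any 1 library left out. It lost the call, with adjusted p of 0.10 to 0.17, without F/M-N replicate 1 or 3, F/M-T replicate 2, Cb-N replicate 1 or 3, or Cb-T replicate 1 or 2, where the difference was 0.85 to 0.99.

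*Axl* (0.30, adjusted p = 4e-04) and *Cd9* (0.27, adjusted p = 0.004) passed the FDR limit with differences under 1.5-fold. For *Cst7*, *Clec7a* and *Itgax* no difference between areas was detectable at the few counts of the controls. Their 95% intervals were -0.70 to 2.38 for *Cst7*, -0.81 to 1.34 for *Clec7a* and -0.88 to 0.72 for *Itgax*, so differences of more than 1.5-fold either way remain possible.

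Levels in the 4 groups followed a common order for most genes. Cb-T was the highest group for 9 of the 10, followed by F/M-T for 8 of these, with both control groups at the bottom. Between controls *Clec7a* was not called (0.81, adjusted p = 0.12), but it was with limma-voom (0.84, adjusted p = 0.099) and without F/M-N replicate 2 (1.12, adjusted p = 0.068). The libraries of the 2 lowest groups overlapped for *Cst7*, *Itgax*, *Axl*, *Lilrb4a* and *Lyz2*, and no other neighbouring groups overlapped for any of the 10 genes. Between the controls, 2 of the 10 genes differed by the limits above, beside 42.4% of all genes (19.2% higher and 23.2% lower in Cb). *Lpl* was lower in Cb-N than in F/M-N by 4.42 on the log2 scale (adjusted p = 1.1e-25), and *Itgax* was higher by 1.04 (adjusted p = 0.044), a call lost without F/M-N replicate 1 (0.72) or 2 (0.90) or Cb-N replicate 3 (0.73), while without F/M-N replicate 3 it was 1.67. Between the mutants, 8 of the 10 genes differed, beside 35.9% of all genes (17.0% higher and 18.9% lower in Cb). *Spp1* was higher in Cb-T than in F/M-T by 1.61 on the log2 scale and *Gpnmb* by 1.96, while *Cst7*, *Clec7a*, *Itgax*, *Lyz2* and *Lilrb4a* were higher by 0.94 to 1.07, and *Lpl* was lower by 0.78 (adjusted p = 1.9e-13).

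Compared per length of exon, the levels changed rank between genotypes. In Cb-N the highest were *Cd9* at 17.5 ± 0.400 CPM per kilobase (SD, n = 3), *Spp1* at 15.9 ± 0.865 and *Axl* at 11.5 ± 0.594. In Cb-T the highest were *Spp1* at 42.7 ± 2.12 CPM per kilobase, *Lyz2* at 36.2 ± 0.303 and *Cd9* at 33.5 ± 2.02. *Cst7* moved from 0.155 ± 0.0739 to 9.89 ± 1.01 CPM per kilobase, beside 5.49 ± 0.112 for *Clec7a* and 2.40 ± 0.0434 for *Itgax* in Cb-T. The summed CPM of the 10 genes was 131 ± 4.69 in Cb-N and 370 ± 8.80 in Cb-T, and 150.0 ± 4.16 in F/M-N and 239 ± 6.49 in F/M-T.

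Genes that mark microglia in general rose as well. Of 10 core microglial genes (among them *Csf1r*, *Fcrls*, *C1qa* and *Aif1*), 10 were upregulated DEG in Cb and 6 in F/M, and their mean log2 CPM was higher in T by 1.91 in Cb and by 0.71 in F/M. Each of the 10 genes was therefore also expressed relative to that mean in every library, as a description without a test. On this scale *Cst7* was still higher in T, by 3.49 in Cb and 3.96 in F/M, *Clec7a* by 3.24 and 4.02, and *Itgax* by 2.81 and 3.91. *Lilrb4a* was higher by 1.67 in Cb and 1.93 in F/M, *Gpnmb* by 1.47 and 1.045, and *Lyz2* by 1.05 and 1.25. *Lpl* was higher by 2.06 in Cb. In Cb, 7 genes lay above and 3 below the controls without overlap. The 3 were *Axl* (-1.30), *Cd9* (-0.97) and *Spp1* (-0.49), whose rise was thus smaller than that of the core genes. In F/M, *Axl* (-0.40), *Spp1* (-0.45) and *Lpl* (-0.33) were below, and *Cd9* (-0.038) overlapped. Against 16 homeostatic genes (5 of them also core genes), *Spp1* became 0.42 in Cb, and *Axl*, *Spp1*, *Lpl* and *Cd9* in F/M became 0.065, 0.024, 0.14 and 0.43, so that the sign of these 5 values depended on the reference. The values of *Lilrb4a*, *Gpnmb* and *Lyz2* were larger with it, at 2.58, 2.38 and 1.96 in Cb and 2.40, 1.51 and 1.72 in F/M, as were those in Cb of *Cst7* (4.40), *Clec7a* (4.14), *Itgax* (3.72) and *Lpl* (2.97). In Cb, *Axl* (-0.39) and *Cd9* (-0.064) stayed below 0 with it.

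**Figure D3:**
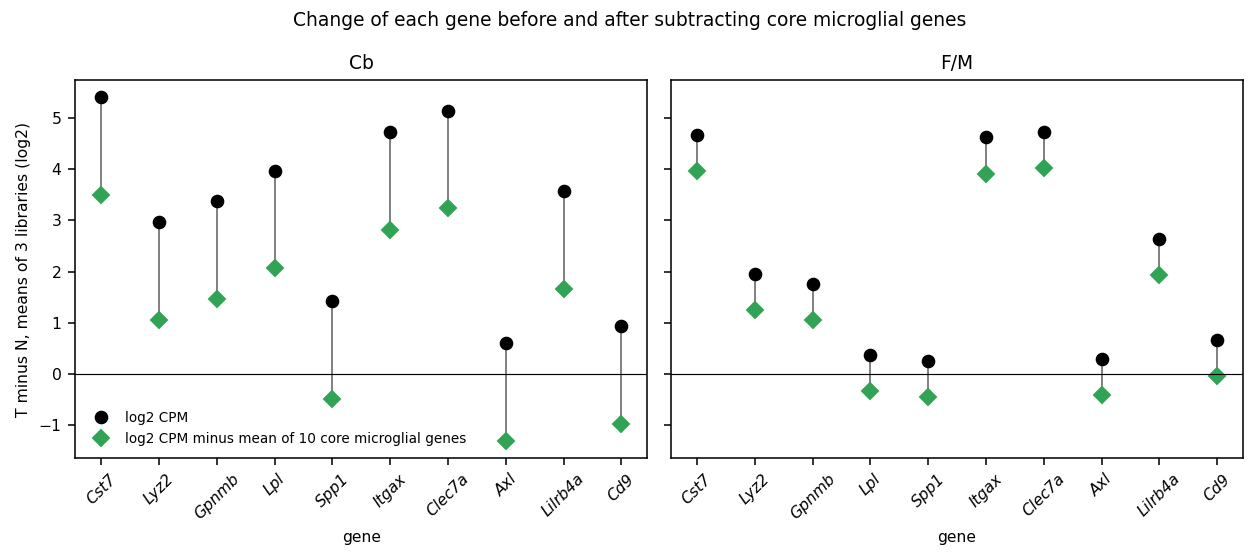
T minus N of the mean log2 CPM (prior count 2) of each gene in Cb (left) and F/M (right), before (black circles) and after (green diamonds) subtracting the mean of the 10 core microglial genes. *Cst7*, *Clec7a* and *Itgax* stay above 2.8 in both areas, while *Axl* and *Spp1* fall below 0 in both areas with this reference.

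Of 26 other genes of the DAM programme, 17 were upregulated DEG in Cb and 11 in F/M, and 0 were downregulated. The median log2 fold changes were 0.87 and 0.50. The largest rises were those of *Ccl3*, a chemokine (4.04 in Cb, 3.08 in F/M), and *Cd52*, a surface glycoprotein of leukocytes (3.85 and 2.57). The lowest values were those of *Hif1a* (0.032) and *Ank* (0.17) in Cb, and of *Igf1* (-0.12) and *Ank* (0.00024) in F/M. Of 16 genes of the homeostatic state, which the DAM programme describes as falling, 11 were upregulated DEG in Cb and 2 in F/M, and 0 were downregulated. These are changes in bulk tissue, not scaled to microglial content. The median of the 16 was 0.88 in Cb and 0.30 in F/M, below the 1.75 and 0.80 of the core microglial genes. Some genes are on both lists, and whether homeostatic genes fell within microglia was not tested. Of the 16, *Fcrls* had the largest value in both areas (3.27 and 1.01), and the lowest were *Slc2a5* (0.091) and *Rhob* (0.25) in Cb and *Tmem119* (-0.064) and *Sall1* (-0.051) in F/M. Without F/M-N replicate 1, F/M-N replicate 2 or F/M-T replicate 3, the count of homeostatic DEG in F/M was 1. For both lists the count of downregulated genes was also 0 with DESeq2, with limma-voom and at an unadjusted edgeR p under 0.05, in both areas.

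Partners of the proteins, listed for all of the 10 genes but *Gpnmb* and *Lyz2*, moved unevenly. Of 6 cysteine cathepsins, the class that cystatin F inhibits, 5 were upregulated DEG in Cb and 4 in F/M, led by *Ctss* (2.29 and 1.30). Of 6 tested genes for maturation, activity or uptake with lipoprotein lipase, 1 was upregulated in Cb, *Angptl4* (0.68, adjusted p = 0.0012), and 0 in F/M, and the cofactor of the lipase, *Apoc2*, had 0 counts in every library. Of 3 tested integrin subunits related to CD11c, its beta partner *Itgb2* was upregulated in both areas (2.60 and 0.82) and *Itgam* in Cb (1.40), and *Itgal* was not (0.035 and 0.037). Of 7 tested genes of dectin-1 signalling, *Vav1* (1.42), *Plcg2* (1.02) and *Syk* (0.88) were upregulated in Cb, and in F/M *Vav1* was upregulated (0.66) and *Prkcd* downregulated (-0.87).

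Of 4 TAM ligands and receptors beside *Axl*, the ligand *Pros1* was upregulated in Cb (0.94) and 0 in F/M, and the other ligand *Gas6* had 0.14 and -0.027. Among 8 osteopontin receptors, *Cd44* (1.25) and *Itga5* (0.82) were upregulated in Cb and 0 in F/M. Of 7 tetraspanins and partners of *Cd9*, 4 were upregulated in Cb, with *Cd37* (1.68) and *Cd53* (1.60) the largest, and 2 in F/M, *Cd37* (0.64) and *Cd63* (0.59). Of 3 phosphatases recruited by inhibitory receptors, *Ptpn6* was upregulated in both areas (2.14 and 0.87) and *Inpp5d* in Cb (1.38), and *Ptpn11* had 0.054 and 0.057. DESeq2 and limma-voom also called 0 genes upregulated in F/M among the lipase, TAM and osteopontin lists. At an unadjusted edgeR p under 0.05, 0, 2 and 3 of them were higher and 3, 1 and 2 lower in F/M. In Cb, 2, 3 and 6 were higher and 3, 1 and 0 lower at that p.

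Markers of other cells that can express the 10 genes were examined beside them. Of 8 tested genes of border macrophages and monocytes, 4 were upregulated DEG in Cb, *Ms4a7* (1.87), *Pf4* (0.99), *Mrc1* (0.69) and *F13a1* (0.59), of which DESeq2 called 3, and of 9 in F/M only *Ms4a7* was (1.14), which DESeq2 did not call. The sum of the 10 genes on that list was 9.84 to 11.7 CPM in Cb-N and 15.4 to 16.2 CPM in Cb-T, and 14.5 to 17.5 against 17.1 to 18.0 CPM in F/M. Their part in the rise of the 10 genes was not tested. Of 8 neutrophil genes, 4 were tested in Cb and 1 in F/M and 0 were upregulated, *Ltf* fell in Cb (-1.47, adjusted p = 0.0014), and the sum was lower in T, at 3.18 to 3.61 against 4.50 to 4.69 CPM in Cb and 1.16 to 1.66 against 1.94 to 2.13 CPM in F/M. Of 12 dendritic cell and lymphocyte genes, 2 were tested in Cb and 3 in F/M and 0 were upregulated, and *Cd3e*, *Cd3g*, *Cd8a* and *Nkg7* had mean levels of 0.0148 to 0.0592 CPM in the N groups and 0.0828 to 0.171 CPM in the T groups, about or under the floor of 3 counts. *Cd4* had 1, 0 and 2 counts in Cb-N and 12, 12 and 4 in Cb-T, too few to be tested within Cb, while the fit of 12 libraries called its change larger in Cb than in F/M (log2 difference 2.82, standard error 0.70, adjusted p = 0.0036). Among the genes of both lists tested within an area, 0 were higher in T at an unadjusted edgeR p under 0.05 and 0 were called upregulated by DESeq2 or limma-voom. Of the second list, this covers only *Flt3* and *Zbtb46* in Cb, with *Cd4* added in F/M, and not the other lymphocyte genes. In Cb-N, *Flt3* and *Zbtb46* had means of 48.4 and 104 CPM, beside 0.0155 for *Xcr1* and 0.0148 for *Clec9a* of that list. The sum of that list, most of it *Zbtb46* and *Flt3*, was 150.4 to 155 CPM in Cb-N and 131 to 132 CPM in Cb-T.

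Among astrocyte genes, 2 of 10 were upregulated in Cb, *Gfap* (2.91) and *Aqp4* (0.79), and 1 in F/M, *Gfap* (1.76). At an unadjusted edgeR p under 0.05, 9 of 10 were higher in each area and 1 was lower in Cb, and the list summed to 6361 to 6390 CPM in Cb-N, 8211 to 8242 in Cb-T, 5590 to 5881 in F/M-N and 6459 to 6837 in F/M-T. Oligodendrocyte genes, summing to 4841 to 4950 CPM in Cb-N and 6319 to 6380 CPM in Cb-T, had 1 of 10 upregulated in Cb, *Opalin* (0.71), and precursor genes 2 of 6, *C1ql1* (1.17) and *Gpr17* (0.65), with 0 of each in F/M, also by DESeq2 and limma-voom. At an unadjusted edgeR p under 0.05, 10 of 10 and 6 of 6 were higher in Cb, and in F/M 2 oligodendrocyte genes were higher and 2 lower and 0 precursor genes were either. The part of astrocytes and oligodendrocytes in the rise of the members was not tested. Of 10 endothelial, 10 fibroblast and mural, 10 neuronal and 8 Purkinje and granule cell genes, 0 were DEG in either area among those tested by edgeR, DESeq2 or limma-voom, with medians of -0.24 to 0.21. At an unadjusted edgeR p under 0.05, endothelial genes were 7 higher and 0 lower in Cb and 4 and 0 in F/M, led by *Cldn5* (0.50 and 0.46), and fibroblast and mural genes 5 and 1 in Cb and 5 and 0 in F/M. Neuronal genes were 3 higher and 5 lower in Cb and 0 and 4 in F/M, and Purkinje and granule cell genes 0 and 7 in Cb and 3 and 1 in F/M. The gene of each of these lists with the highest CPM averaged over the 4 groups had -0.0025 in Cb and -0.0085 in F/M for *Flt1*, 0.16 and 0.092 for *Rgs5*, -0.22 and -0.083 for *Snap25*, and -0.31 and -0.15 for *Itpr1*.

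**Figure D4:**
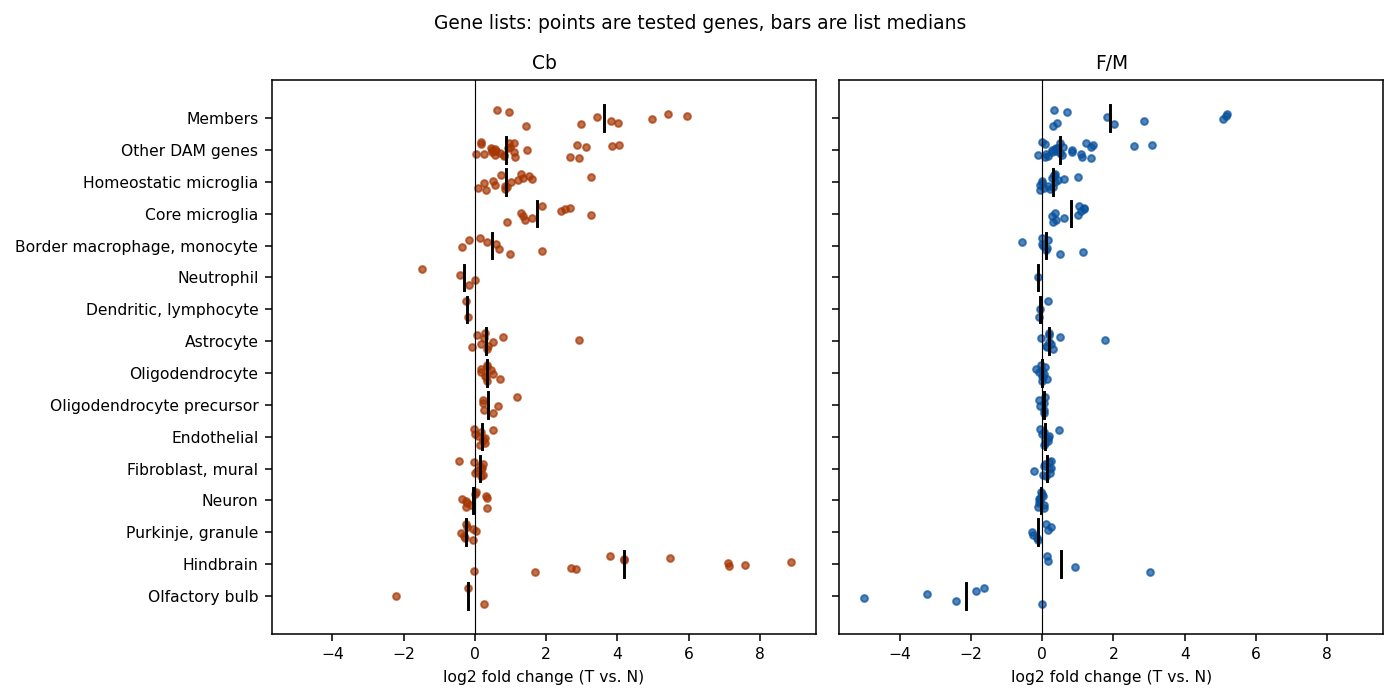
Log2 fold change (T vs. N) of the tested genes of each list, as points, with the list median as a bar, in Cb (left) and F/M (right). The 10 genes have medians of 3.62 and 1.91, core microglial genes 1.75 and 0.80, and hindbrain genes 4.18 in Cb.

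The genes whose pattern over the 12 libraries was most like the mean profile of the 10 genes were *Gfap* (Pearson's r = 0.997), the lysosomal genes *Ctsa* (0.995), *Ctsd* (0.995), *Ctsz* (0.992) and *Npc2* (0.990), the prostaglandin synthase gene *Ptgds* (0.989), *Tlr2* (0.984) and *Mmp12* (0.983). The libraries share area and genotype, so these correlations mostly describe how the levels of the 4 groups are spaced. By Spearman's rank correlation, 0 of these 8 were among the 8 most alike. The first of them, *Gfap*, marks astrocytes and not microglia. *Mmp12*, a macrophage elastase, had mean levels of 0.0301 CPM in Cb-N, 2.94 in Cb-T, 0.0445 in F/M-N and 1.18 in F/M-T, both controls being under the floor of 3 counts. Among the 10 genes, the correlation of each with the mean of the other 9 was 0.963 to 0.995 for 8 of them, 0.731 for *Spp1* and 0.435 for *Lpl*.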

How the data were processed

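Poly(A)-selected RNA of Cb and F/M was sequenced as single-end reads. Per the labels' processing notes and the study's methods, the authors aligned reads to GRCm38 (mm10) with STAR (the sources name different versions), counted reads per gene with featureCounts 1.26.1 and deposited raw counts, 1 table per library. The strand setting and the handling of multiply aligned reads are not given in the sources used here.

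Groups and replicate numbers were taken from the sample titles. The study names 3 mice per genotype but not which libraries share a mouse, so p-values measure the spread between these libraries. The counts of replicate libraries differed by more than sampling noise, with a chi-square per degree of freedom of 1.28 to 3.59 over 12 pairs.

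Counts were analysed in R 4.3.3 with edgeR 4.0.16: filterByExpr (minimum count 10, minimum total 15), TMM, glmQLFit and glmQLFTest, and Benjamini-Hochberg adjustment over all genes tested. The fits used the 6 libraries of an area, or all 12 for area differences and levels. Calls needed FDR below 0.1 and at least 1.5-fold. Standard errors are the log2 fold change divided by the root of the F statistic, and 95% intervals follow from them. CPM of all 12 libraries used TMM factors of 0.956 to 1.05. Log2 CPM used a prior count of 2, fold changes one of 0.125. The tests were checked on simulated data. Gene positions are from GENCODE and promoters from RefSeq (GRCm38.p6).

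The 10 genes, the lists and the tests were chosen with earlier results of these data known. Named genes were the 10 genes, *Tpp1*, paralogs, the 2 largest and 2 smallest changes of each list of partners or states, the most abundant and the called markers of other cells and the 8 most similar genes. Of partners and some marker lists, only part of these are named, a choice made after their values were seen, and 1 gene's own values are not reported here. Alternatives were DESeq2 1.42.0, limma-voom (limma 3.58.1), RLE factors, no low-count filter, a replicate block, other FDR and fold limits, a single fit of 12 libraries, other prior counts, another reference list, Spearman's correlation, and leaving out each library. Cuffdiff was not used here.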

Additional observations from a re-analysis of the deposited data

Results flagged for a closer look

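The change between genotypes differed between Cb and F/M, by the test of the interaction itself, for 5 of the 10 genes. The log2 difference (Cb minus F/M) was 3.63 for *Lpl*, 1.62 for *Gpnmb*, 1.16 for *Spp1*, 1.00 for *Lyz2* and 0.971 for *Lilrb4a*. Core microglial genes moved with these differences, 10 of 10 of them having a larger rise in Cb by the same test. Relative to the core mean, T minus N was larger in Cb for *Lpl* (2.06 against -0.33 in F/M) and *Gpnmb* (1.47 against 1.045). It was smaller in Cb for *Lyz2* (1.05 against 1.25), *Lilrb4a* (1.67 against 1.93) and *Spp1* (-0.49 against -0.45). Relative to the homeostatic genes it was larger in Cb for all 5, and neither scale was tested. Of 12 hindbrain genes, 11 were upregulated in Cb, and the interaction test called 2 larger in Cb, *Chat* (3.70) and *Slc5a7* (2.70), 2 larger in F/M, *Slc6a5* (-0.92) and *Tph2* (-1.31), and 8 neither. Only 4 of the 12 had enough counts to be tested in F/M, and the median fitted difference of 4.18 depends on the prior count. Of 6 olfactory bulb genes, 3 had a higher value in Cb by that test, with a median difference of 2.37. The part of any of these lists in the differences was not tested. The *Lilrb4a* difference had adjusted p = 0.072 in edgeR's quasi-likelihood test, and it passed or missed the FDR limit depending on which library was left out.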

How the results depend on the processing

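Of 260 values of the 10 genes in T vs. N within an area under 13 alternatives each, which leave the FDR and fold-change limits as they were, 259 kept their direction and side of the limits, the exception being *Axl* in Cb without Cb-N replicate 2 (0.57). Libraries of the same replicate number had correlations of -0.016 to 0.062 over 12 pairs, 0 over 0.1. Some of these pairs were N against T, thus different mice, and libraries of different numbers were not compared. Whether any libraries shared a mouse cannot be told from these values. With the replicate block, 10 genes were called in Cb, 7 in F/M and 5 for the area difference, and the list counts were 17 and 11 other DAM genes and 11 and 2 homeostatic genes in Cb and F/M. The block changed no call of the 10 genes in T vs. N or for the area difference, and levels between areas were not fitted with it.

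Without the fold-change limit, all genes called upregulated were 4878 in place of 1399 in Cb and 2134 in place of 438 in F/M, calls for the area difference were 4816 in place of 1331, and those between controls and between mutants 13920 and 13336 in place of 7420 and 6268. It also gave 10 of the 10 genes in Cb and in F/M, 7 for the area difference, 5 between controls and 10 between mutants, 11 homeostatic genes and 24 other DAM genes in F/M. DESeq2 called 283 genes upregulated in F/M. A single fit of 12 libraries gave 1 homeostatic gene in F/M. Spearman's correlation shared 0 of the 8 most similar genes. Leaving out 1 library gave 1 to 2 of the 10 genes between controls and 1 to 2 homeostatic genes in F/M.

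The *Lilrb4a* area difference missed the limit with DESeq2 (0.95, adjusted p = 0.12) and without the filter (0.99, adjusted p = 0.10). Area differences that changed sign when 1 library was left out ranged from -0.054 to 0.605 for *Clec7a*, -0.12 to 1.43 for *Cst7* and -0.71 to 0.24 for *Itgax*, and a prior count of 2 gave 0.16 for *Itgax*. Control levels (Cb-N minus F/M-N) likewise ranged from -0.38 to 1.17 for *Cst7*, -0.11 to 0.061 for *Lilrb4a* and -0.061 to 0.13 for *Lyz2*. Relative to homeostatic genes, *Axl*, *Cd9*, *Lpl* and *Spp1* in F/M were at 0.065, 0.43, 0.14 and 0.024, and *Spp1* in Cb at 0.42. The cause of these changes was not tested. Depth limits the genes with few counts in controls, *Cst7*, *Itgax*, *Clec7a* and *Lilrb4a*.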
